A study of Mus musculus with 2 samples.

Results

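Integrin subunits and laminin chains were examined in the internal and external carotid arteries of the mouse embryo. The genes were chosen by name, as a list of 23 integrin and 10 laminin genes, and every probe set annotated to one of them was read. The list and its binding classes were set with earlier results of these data known. At least 1 probe set was found for 32 of the 33 genes, with 70 probe sets in all, among 18193 genes named on the array. Itga11, a collagen receptor subunit, had no probe set in the annotation used and is not analysed further. The list does not hold every member of these families.

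RNA came from vessel segments dissected from ICR embryos at stage E13.5, in mid-gestation, with no treatment and no altered allele named in the labels. One pool held internal carotid segments and the other external carotid segments, and the design text gives 22 embryos in all. Each pool was read on 1 Affymetrix array with no replicate, so each signal is a single measurement, no test between the vessels is possible and no p-value is given. The submitters' description of the series concerns endothelin and the paths taken by axons of the superior cervical ganglion. The comparison here asks how RNA signals for adhesion receptors and matrix proteins differ between these 2 dissected pools. Protein was not measured.

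Integrins are adhesion receptors made of 1 alpha and 1 beta subunit, and the pairing decides which ligand is bound. Laminins are secreted trimers of an alpha, a beta and a gamma chain that assemble into the basement membrane, the sheet of matrix under endothelium and around muscle and nerve fibres. Growing axons, Schwann cells and vessel wall cells all use integrins to hold and to move on laminin, collagen and fibronectin.

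Signals are MAS5 values on a linear scale, and a probe set's signal was compared only between the arrays, never with another gene's. The median of each array served as a floor, 47.5 for the internal and 52.3 for the external carotid array. A ratio, given as log2 of external over internal signal, was used where both signals reached their floors. Where 1 signal did not, the other signal over the missing side's floor gave a lower bound. The brightest probe set stood for each gene. As a technical yardstick, the spread of log2 ratios among a gene's own probe sets was pooled over 4315 genes as a standard deviation of 0.34 (1.26-fold), which covers probes on these arrays and not embryos or dissections.

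Most integrins and laminins gave near-equal signals in the 2 pools, as did most genes with a value. Of the 32 genes, 27 reached the floor on both arrays, Itgb7 had a bound and 4 had no ratio (Itgal, Itgam, Itgb6 and Lamb3). Among the 28 with a value, Lama3 was past 2-fold in the external carotid pool and none was in the internal carotid pool. The background among all 12408 genes with a value was 2.10% past 2-fold with the external signal higher and 1.47% with the internal signal higher. The log2 values ran from the bound of -0.95 for Itgb7 to 1.06 for Lama3, with a median of 0.12 against 0.06 over all genes. Within the probe-set spread lay 17 of the 28, against 7920 of the 12408 genes. Above it were 9 and below it 2, against 21.6% and 14.5% of all genes.

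**Figure D1:**
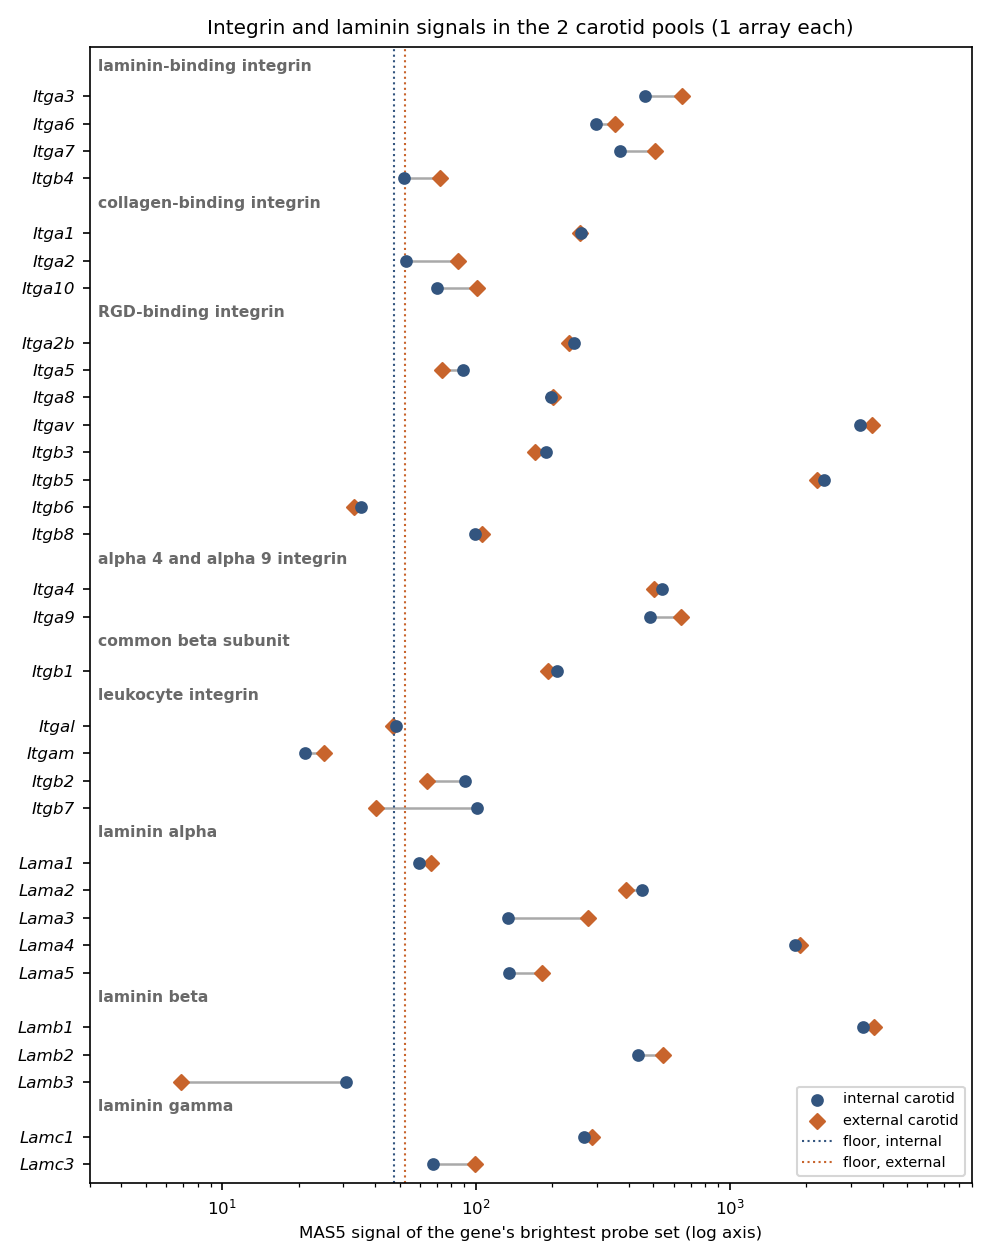
MAS5 signal (log axis) of the brightest probe set of each of the 32 genes, with circles for the internal and diamonds for the external carotid array, joined by a line, and dotted lines at the floors of 47.5 and 52.3. Most pairs nearly overlap, the widest gap among genes above both floors is that of Lama3, and signals of different genes cannot be set against each other.

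Laminin-binding integrins had somewhat higher signals in the external carotid pool. These are Itga3, Itga6 and Itga7, which pair with Itgb1 to bind laminin, and Itgb4, the partner of Itga6 in hemidesmosomes. Itga3 read 465 internal and 650 external, a log2 ratio of 0.48. A further Itga3 probe set read 71.8 and 81.5, or 0.18, so the sign was shared and the size was not.

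Itga6 read 298 internal and 353 external (log2 ratio 0.25), and its second probe set read 196 and 207 (0.08). Both values are within the probe-set spread. Itga7, the alpha subunit best known from skeletal muscle fibres and also made by smooth muscle, read 368 internal and 506 external, a log2 ratio of 0.46 from its single probe set. Itgb4 stood close to the floor, at 52.1 internal and 72.1 external (0.47).

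All 4 laminin-binding subunits were above 0, against 56.1% of all genes, with a median of 0.47. Above the probe-set spread were 3 of them, against 21.6% of all genes. As the binding classes were set with earlier results of these data known, these counts only describe the class. After loess, which removes the drift of the ratio with signal, the 4 remained above 0 with a median of 0.39, and 2 were above the spread, as Itgb4 was at 0.33. None reached 2-fold under any of the alternatives. Itgb1, the partner of Itga3, Itga6 and Itga7, was classed apart, at -0.12 by its brightest probe set and 0.68 by the next. In the same pools all 9 sympathetic neuron markers were above 0, with a median of 2.35 and summed signals of 1524 internal and 9831 external. The Schwann cell markers had a median of 1.43, with 4 of 5 above 0 and Erbb3 at -0.30. The smooth muscle markers had a median of 0.38, with 5 of 7 above 0 and summed signals of 13008 internal and 11174 external. All 12 skeletal muscle markers were below 0, with a median of -2.12. The part of these cell types in the laminin-binding integrin values was not tested. In bulk RNA, a lower number of cells of one type cannot be told from less RNA per cell.

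Collagen-binding integrins were split. Itga1, common in vessel wall smooth muscle, read 259 internal and 256 external, a log2 ratio of -0.01. Itga2, a collagen receptor of epithelium and platelets, read 53.0 internal and 84.9 external, a log2 ratio of 0.68, the highest of the integrins. Itga10, a receptor of cartilage cells, read 69.9 and 100.6 (0.53).

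Itga2 and Itga10 were dim, with internal signals 1.12 and 1.47 times the floor. When all measured probe sets with a gene were sorted by signal into 10 equal groups, the median log2 ratio was 0.17 in the dimmest and -0.17 in the brightest. After loess the values were 0.55 for Itga2 and 0.41 for Itga10. Neither had a value once the floors were raised to the 75th percentile. The 3 measured cartilage markers had a median of 0.53, with 2 above 0 and Col9a1 at -0.18. With 4 given a value, the median was 0.15 after loess, 0.16 after quantile normalization and 0.21 after centring. The summed signal over all 5 listed was 828 internal and 1027 external, and the part of cartilage cells in the Itga10 value was not tested.

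Integrins that bind the RGD sequence of fibronectin, vitronectin and related proteins were close to even. All 7 with a value were within the probe-set spread, against 7920 of the 12408 genes with a value. They ran from -0.28 to 0.17, with a median of -0.07. After loess 5 of the 7 were within the spread, against 8523 of 12560 genes, as Itgav moved to 0.39 and Itga5 to -0.40. Quantile normalization gave 0.38 and -0.38. Itgav, the alpha subunit shared by several of these receptors, read 3246 internal and 3645 external, a log2 ratio of 0.17. Its 4 other probe sets were under the floors on both arrays, so this gene rests on 1 probe set.

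Itgb5, a partner of Itgav, was read by 4 probe sets that were all above the floors. The brightest read 2341 internal and 2212 external (-0.08), and the others read 1152 and 1187 (0.04), 811 and 930 (0.20), and 459 and 397 (-0.21). The 4 ratios fall on both sides of 0 within the spread, which makes Itgb5 the member with the most probe sets behind a near-equal value.

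Itgb8, the partner of Itgav that takes part in releasing TGF-beta, read 99.4 and 105.4 (0.08). Itga8, a receptor for nephronectin in mesenchyme and smooth muscle, read 197 and 200.2 (0.02). Itga5, the classic fibronectin receptor subunit, read 88.6 internal and 73.1 external (-0.28). A further Itga5 probe set read 77.4 internal and 35.7 external, the latter under its floor, which gave a bound of -0.57 in the same direction. Itgb6, the epithelial partner of Itgav, read 35.3 and 33 and had no ratio, as both signals were under the floors.

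The platelet receptor pair was within the probe-set spread. Itga2b, the alpha subunit made by megakaryocytes and platelets, read 243 internal and 232 external (-0.07), and Itgb3, its partner and also a partner of Itgav, read 189 and 171 (-0.14). Of 4 megakaryocyte and platelet markers with a value, 3 were below 0 and none was past 2-fold, with Pf4 at -0.40, Ppbp at -0.14 and a median of -0.27. The lowest was Gp9, at 82.1 internal and 28.8 external, a bound of -0.65, and 2 of the 4 were below the probe-set spread. Their summed signals over 5 genes were 2014 internal and 1688 external.

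Itga4 and Itga9, relatives that bind VCAM1, fibronectin splice forms and tenascin, pointed in opposite directions. Itga4, made by neural crest, muscle precursors and leukocytes, read 539 internal and 501 external (-0.11), with 168 and 116 (-0.53) at a further probe set. Itga9, found in smooth muscle and lymphatic endothelium, read 484 internal and 641 external (0.41), with 130 and 237 (0.87) at a further probe set. In each gene the brightest probe set was the one nearer to 0, so the size of both differences depends on the probe set chosen.

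Itgb1, the beta subunit shared by most matrix receptors, was the member whose probe sets disagreed most. Its brightest probe set read 209 internal and 192 external (-0.12), the next read 116 and 186 (0.68), and the other 4 were under both floors. The range of 0.80 between these 2 measured ratios was the widest among the 9 member genes with more than 1 measured probe set. The sign of Itgb1 turned to a value of 0.28 when the median over probe sets was taken, so the arrays give no settled direction for it. Across the 9 genes, 6 had probe sets of 1 sign and 5 spanned more than the probe-set spread.

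**Figure D2:**
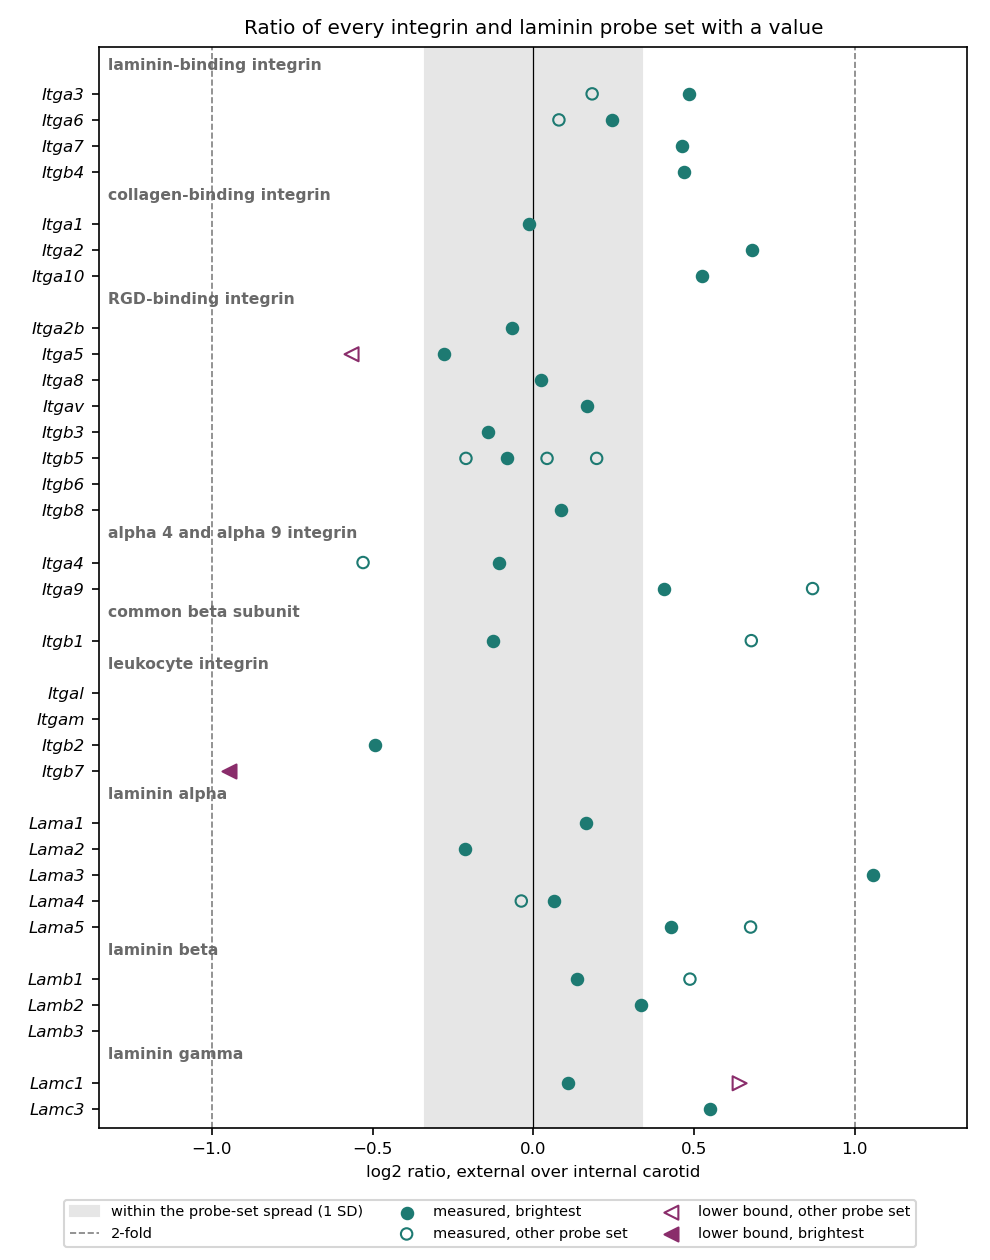
Log2 ratio of external over internal carotid signal for each of the 41 probe sets with a value, by gene. Filled symbols are the brightest probe set of a gene, open symbols the others, triangles are lower bounds, the grey band is the probe-set spread of 0.34 on either side of 0 and dashed lines mark 2-fold. At the deposited scaling the RGD-binding class keeps to the grey band apart from 1 bound of Itga5, and Itgb1 has probe sets on both sides of 0.

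Of the 4 leukocyte integrins, the 2 with a value had lower signals in the external carotid pool, and both were dim. Over all genes with a value, 5435 of 12408 were below 0. Both integrins were also below the probe-set spread, against 14.5% of all genes. Itgb2, the beta subunit of the leukocyte receptors, read 90.3 internal and 64.2 external, a log2 ratio of -0.49. Itgb7, the beta subunit of lymphocytes and mast cells, read 100.9 internal and 40.2 external. The latter is under the floor, so the internal signal was at least 1.93-fold higher (bound -0.95), just short of 2-fold.

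The Itgb7 bound passed 2-fold after centring, quantile normalization (-1.06) and loess (-1.09). Floors at the 75th percentile left both Itgb2 and Itgb7 without a value. The alpha partners of Itgb2 had no ratio at the deposited scaling, with Itgal at 48.4 and 47.2 and Itgam at 21.1 and 25.2. Itgal was at -0.04 after loess and -0.03 after quantile normalization, within the probe-set spread. Among macrophage and leukocyte markers, 8 of 9 were below 0 with a median of -0.54, and their summed signal was 16502 internal and 10854 external. The exception was Ptprc, a gene of leukocytes in general, at 46.1 internal and 66.1 external, a bound of 0.48. After loess the list median was -0.46, and 3 of the 9 were within the probe-set spread. All 7 neutrophil markers were below 0 with a median of -1.20 and summed signals of 2322 and 410. The part of these cells in the Itgb2 and Itgb7 values was not tested.

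Among laminin alpha chains, Lama3 differed most between the pools. Lama3, the alpha chain of epithelial basement membranes, read 133 internal and 277 external, a log2 ratio of 1.06 or 2.08-fold. Of all genes with a value, 215 had a higher one. Its further probe set read 22.3 and 48.2, both under the floors, and gave no ratio.

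The 2-fold call of Lama3 rests on a narrow margin. The ratio was 0.99 after quantile normalization and after loess, 0.87 with a pseudocount and 0.93 as a bound against the 75th percentile, and it stayed above 0 under all 9 alternatives. Lamb3, which joins Lama3 in the epithelial trimer, was under both floors at 30.6 internal and 6.9 external. The epithelial markers did not share 1 direction, with 3 of 6 above 0, a median of -0.12 and a range from -0.94 for Krt14 to 1.96 for Epcam. Their summed signal over 7 genes was 977 internal and 1394 external. The higher external sum rests on Epcam, which read 169.5 internal and 660.9 external. The part of epithelial cells in the Lama3 value was not tested.

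The alpha chains of vessels and muscle differed less. Lama4, the chain of blood vessel basement membranes in the embryo, read 1814 internal and 1898 external (0.07), with 97.4 and 94.9 (-0.04) at its other measured probe set. Lama5, which endothelium and epithelium make, read 135 and 182 (0.43), with 76.0 and 121.4 (0.68) at a further probe set, so both readings were higher in the external carotid pool and beyond the spread. Lama2, the chain around muscle fibres and Schwann cells, read 452 internal and 390 external (-0.21) and was the 1 laminin below 0. Lama1, the chain of early embryonic basement membranes, read 59.5 and 66.6 (0.16), near the floors.

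Of the beta chains, Lamb1 read 3358 internal and 3687 external (0.13) at its brightest probe set and 253 and 355 (0.49) at the next. Lamb2, a chain of synaptic and mature vessel basement membranes, read 433 and 546 (0.33). Of the gamma chains, Lamc1, part of most trimers, read 267 internal and 287 external (0.11). A dim further probe set of Lamc1 read 13.4 and 74.1, which gave a bound of 0.64. Lamc3 read 67.5 and 98.8 (0.55) at the brighter of 2 probe sets, again near the floors.

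Lama4, Lamb1 and Lamc1, which together form the laminin trimer typical of embryonic vessel walls, had ratios of 0.07, 0.13 and 0.11. After loess these were 0.21, 0.36 and 0.06, with Lamb1 above the probe-set spread, and without probe sets ending in _x_at or _s_at Lamb1 was at 0.49. Taking Lama5 in place of Lama4 gives the other vascular trimer, with the alpha chain at 0.43. As a family, 8 of 9 measured laminins were above 0, against 56.1% of all genes, with a median of 0.16 against 0.06. Within the probe-set spread were 6 of the 9, and 3 were above it, against 21.6% of all genes. The 8 of 9 also held after centring, quantile normalization and loess, with medians of 0.11, 0.33 and 0.33. Of all genes, 6244 of 12462, 6635 of 12569 and 6560 of 12560 were above 0 under these scalings. Of the integrins 10 of 19 were above 0, and their median of 0.02 turned to -0.03 after centring, -0.01 after quantile normalization and -0.03 after loess.

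**Figure D3:**
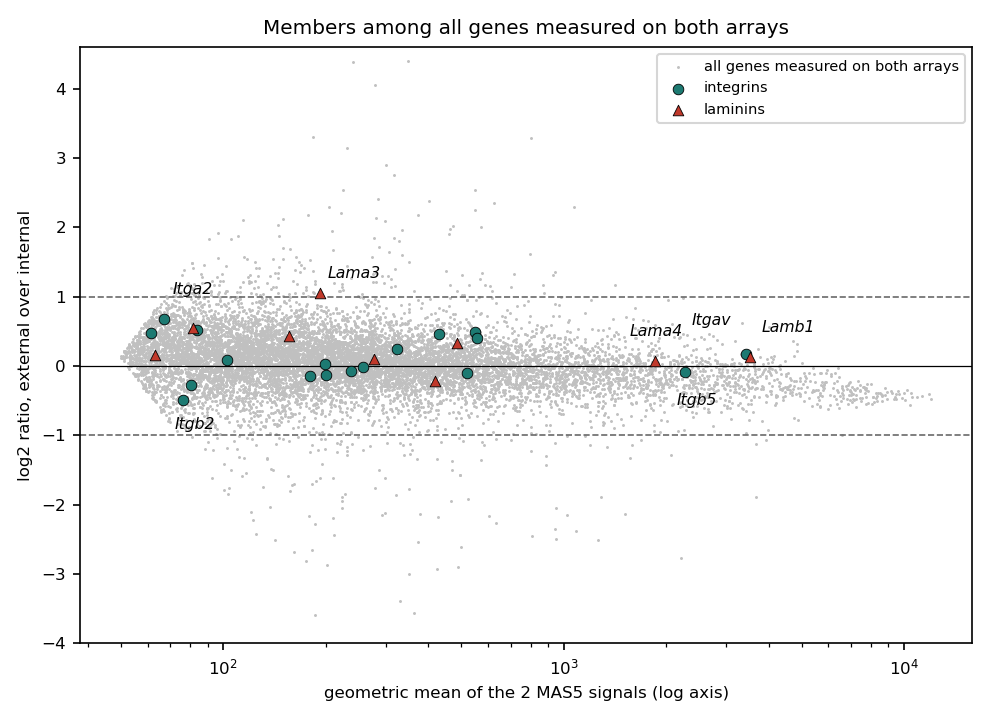
Log2 ratio of external over internal carotid signal against the geometric mean of the 2 signals (log axis), with grey points for genes measured on both arrays, circles for 18 integrins and triangles for 9 laminins, and dashed lines at 2-fold. The members lie inside the grey cloud, with Lama3 just above the 2-fold line, and the cloud itself bends down at high signal.

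Genes that act with integrins inside the cell were mostly even as well. Of 19 adhesion genes with a value, 9 were above 0, against 56.1% of all genes, and 10 below, with a median of -0.02. Past 2-fold was 1 gene, in the internal carotid pool, against 1.47% of all genes. This was Itgb1bp2, whose product melusin binds the Itgb1 tail in striated muscle. It read 125.5 internal and 15.3 external, so that the internal signal was higher by at least 2.40-fold, and had no value against floors at the 75th percentile.

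In the same pools all 12 skeletal muscle markers were below 0, 10 of them past 2-fold, with a median of -2.12 and summed signals of 23273 internal and 5167 external. Their part in the Itgb1bp2 value was not tested. Fermt3, the kindlin of blood cells that activates leukocyte and platelet integrins, read 865 internal and 446 external (-0.96) at its brightest probe set. Its others gave 0.12, -0.31 and a bound of -1.05. Parva, a partner of integrin-linked kinase and the highest of the list, read 463 internal and 867 external (0.91), with 0.20 at a further probe set. Fermt3 and Parva were picked out after their values were seen.

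Other basement membrane genes were close to even, with 8 of 17 above 0, against 56.1% of all genes, none past 2-fold and a median of -0.03. The extremes were Smoc2, a matricellular protein gene, at 283 internal and 163 external (-0.80), and the collagen IV chain gene Col4a6 at 88.6 and 130.1 (0.55). The laminin-binding linker Nid1 read 2484 and 2633 (0.08). The list median was 0.11 after loess, so it has no settled sign.

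Laminin receptors outside the integrin family, listed with the intracellular linkers Dmd and Utrn, had 7 of 9 above 0, against 56.1% of all genes, none past 2-fold and a median of 0.21. Dmd, which ties the dystroglycan laminin receptor to actin, was highest, at 154 internal and 262 external (0.76), and its relative Utrn read 486 and 719 (0.57). Dag1, dystroglycan itself, read 1502 and 1920 (0.35). Rpsa, the ribosomal protein gene also described as a laminin receptor, was lowest, at 12658 internal and 8582 external (-0.56). Its ratio was -0.19 after loess and -0.10 after quantile normalization, both within the probe-set spread.

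Among 15 other integrin ligands, Npnt was past 2-fold, in the internal carotid pool, against 1.47% of all genes. Below 0 were 9 of the 15, against 5435 of 12408 genes with a value, and the list median was -0.06. Npnt encodes nephronectin, the ligand of the Itga8 receptor. Its brightest probe set read 216 internal and 104 external, a log2 ratio of -1.05, with -1.20 and -0.95 at 2 further probe sets and 0.22 at another. The call was kept under 5 of 9 alternatives, and the ratio ranged from -1.14 to -0.49 over them. Itga8 itself was even, at 0.02.

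Tgfbi, a matrix ligand of several integrins picked out after its values were seen, read 867 internal and 1670 external (0.95), and its other probe sets had ratios of 0.98, 1.10 and 1.64. Fn1, the fibronectin gene, read 2673 and 2729 (0.03). Of the membrane partners of integrins, Cd9 read 47.6 internal and 82.9 external (0.80), the former at the floor. Cd82 read 435 and 280 (-0.63), and the median over 5 such genes was 0.12 with none past 2-fold.

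**Figure D4:**
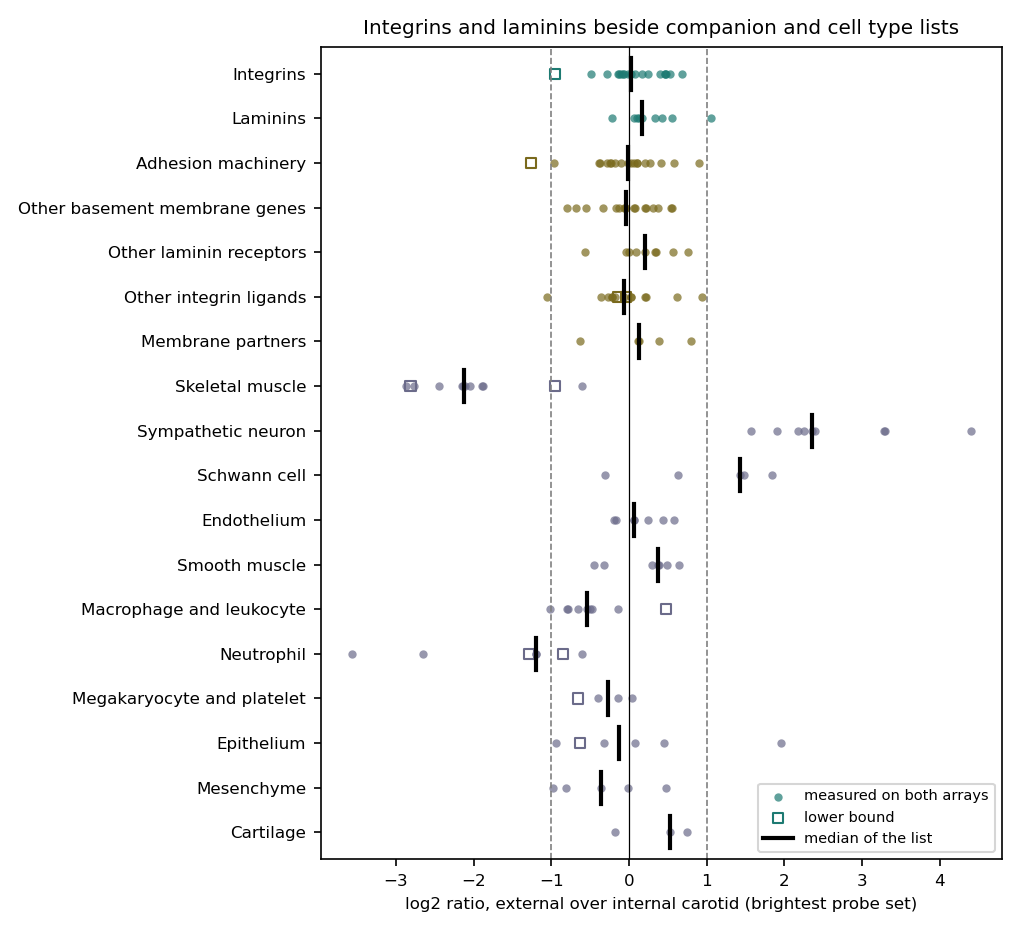
Log2 ratios of external over internal carotid signal for integrins, laminins, 5 companion lists and 11 cell type marker lists, with points for genes measured on both arrays, open squares for lower bounds, black bars for list medians and dashed lines at 2-fold. Skeletal muscle (median -2.12) and sympathetic neuron markers (2.35) lie far from 0, while the integrin and laminin medians are 0.02 and 0.16.

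Vessel wall markers were present in both pools. Endothelial markers had a median of 0.07 and smooth muscle markers of 0.38, with summed signals of 3016 and 3125 for the former and 13008 and 11174 for the latter, internal first. Pecam1 was under both floors, at 11.2 and 48.6, while Cdh5 read 225 and 337. The sympathetic neuron markers, all 9 past 2-fold in the external carotid pool with a median of 2.35, had summed signals of 1524 and 9831, and mesenchyme markers had a median of -0.36, which was -0.01 after loess and 0.08 after quantile normalization. The listed cell type markers with a probe set but no ratio were Pecam1, Gp6, Cdh1, Sox9 and Matn1.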

How the data were processed

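Total RNA of 2 vessel pools was amplified in 2 rounds from an oligo-dT primer and hybridised to 1 array each, per the labels' protocols, so signals favour 3' ends. The deposited intensity values are MAS5 signals made with GCOS 1.4, per the submitters' processing notes; a 2% trimmed mean of 150 on both arrays shows a common scaling, and they were used as deposited. The 64 control probe sets of 45101 were left out. Of the other 45037, 34945 had 1 gene in the platform annotation, 932 several and 9160 none listed; names were updated through RefSeq (GRCm38.p6) for 34741. The brightest probe set has the highest geometric mean signal. A bound pointing against the measured side gave no value.

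Members, lists and binding classes were chosen with earlier results of these data known. Named are all members, companion genes past 2-fold or else the extremes of their list, and others where marked or as reference. Steps were tested on simulated data. The number of arrays limits precision. Alternatives changed scaling, floor, probe-set rule and threshold. Python 3.11.15, numpy 2.4.6, pandas 2.3.3, statsmodels 0.14.6 and matplotlib 3.10.9 were used.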

Additional observations from a re-analysis of the deposited data

How the results depend on the processing

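With 1 array per pool, no setting measures the spread between embryos. No paired analysis was possible because each group has a single array. The count of integrins past 2-fold, 0 as reported, was 1 under each of the 3 other scalings (centring, quantile and loess), under floors lowered to the 25th percentile and without floors, each time Itgb7, and 2 at 1.5-fold. The count of laminins past 2-fold, 1 as reported, was 0 under quantile and loess scaling, under floors raised to the 75th percentile, under the pseudocount and at 3-fold, and 2 with no floor, where Lamb3 (-2.15) joined Lama3. Over all genes the count of 444 became 1235 with the floor at the 25th percentile, 184 at the 75th, 2578 with no floor, 289 with the pseudocount, 1808 at 1.5-fold and 123 at 3-fold. Its split of 261 external and 183 internal became 222 and 218 after centring, 203 and 219 after quantile normalization and 198 and 224 after loess. The integrin median stayed between -0.03 and 0.09 and the laminin median between 0.11 and 0.33. No member past the probe-set spread changed sign. Signs turned for Itga1, Itga8, Itgb1, Itgb5 and Itgb8 under 1 to 3 of 9 settings. Alternatives for companion genes were chosen after seeing the data.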

Other observations

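Of the 70 integrin and laminin probe sets, 27 were under both floors, and these belonged to 17 genes. Several widely expressed subunits had such probe sets beside a bright one. Itgav had 4 of them, with signals from 4.1 to 31.9, beside the probe set at 3246 internal and 3645 external. Itgb1 also had 4, among them one at 36.5 internal and 3.6 external, with a plain log2 ratio of -3.34, and one at 0.7 and 3.9, with 2.48. Plain ratios this wide at such dim signals point both ways within 1 gene, so none was used.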
